A study of Mus musculus with 10 samples.

Results

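The genes described here encode proteins of the spliceosome, the machine that removes introns from pre-mRNA, and the SR proteins that guide it. They were chosen by name from a table of transcript levels in developing mouse neocortex: every gene whose symbol begins with Srsf, Snrp, Sf3, Prpf, U2af or Lsm and a digit. The rule found 52 genes of 6147 in the table, and all 52 passed the filter used for testing, a mean of at least 1 TPM over the libraries. TPM is the share of a gene's transcripts among all transcripts in a library, on a fixed total. Symbols that begin with Snrnp do not match the rule, and those genes are described further on with the other splicing factors.

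All libraries were made from neocortex, and all mice were CD1 wild type, an outbred laboratory stock. There were 5 groups of 2 libraries, 10 in all: embryos at E12.5, E14, E15.5 and E17, in days of gestation, and newborn pups at P0. Nothing else differed between the groups in the labels, which name no genetic change, treatment, sex or litter. Tissue was frozen and pulverized cold in a detergent buffer, debris was spun out, and libraries of polyadenylated RNA were made with a stranded kit from RNA extracted from the cleared lysate. The series text calls the libraries of a stage biological duplicates, and no label ties a library to an animal or litter, so the p-values measure the spread between these libraries. In whole tissue, fewer cells of a type and less RNA per cell cannot be told apart.

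Splicing is carried out by small nuclear ribonucleoprotein particles (snRNPs), each built on a small nuclear RNA. The U1 particle and the U2AF proteins mark the ends of an intron, the U2 particle binds the branch site, and the U4/U6.U5 tri-snRNP then joins and is rearranged into the catalytic machine. A ring of Sm proteins sits on the U1, U2, U4 and U5 RNAs and a related ring of Lsm proteins on the U6 RNA, while other Lsm proteins act in histone mRNA processing or in the cytoplasm. SR proteins bind exons, recruit these particles and shift splice site choice, and neural tissue is known for its many tissue-specific exons.

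The question was how these genes change as the neocortex develops. Between E12.5 and P0, 44 of the 52 genes fell, 3 rose and 5 did not pass limma's test (Benjamini-Hochberg adjusted p under 0.05 over all genes tested). Of all 6048 genes tested, 78.2% were called in this comparison (51% lower at P0 and 27.1% higher). The median change of the 52 genes was -0.82 on the log2(TPM + 1) scale, beside -0.275 for all genes tested. A fall of at least 1 on that scale was called for 19 of the 52 genes (36.5%) and for 20% of all genes tested. For genes with low values this scale makes a change look smaller, and the SE of a difference had a median of 0.089 over the 52 genes. The plot of change by gene sets them beside the median of all genes.

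**Figure D1:**
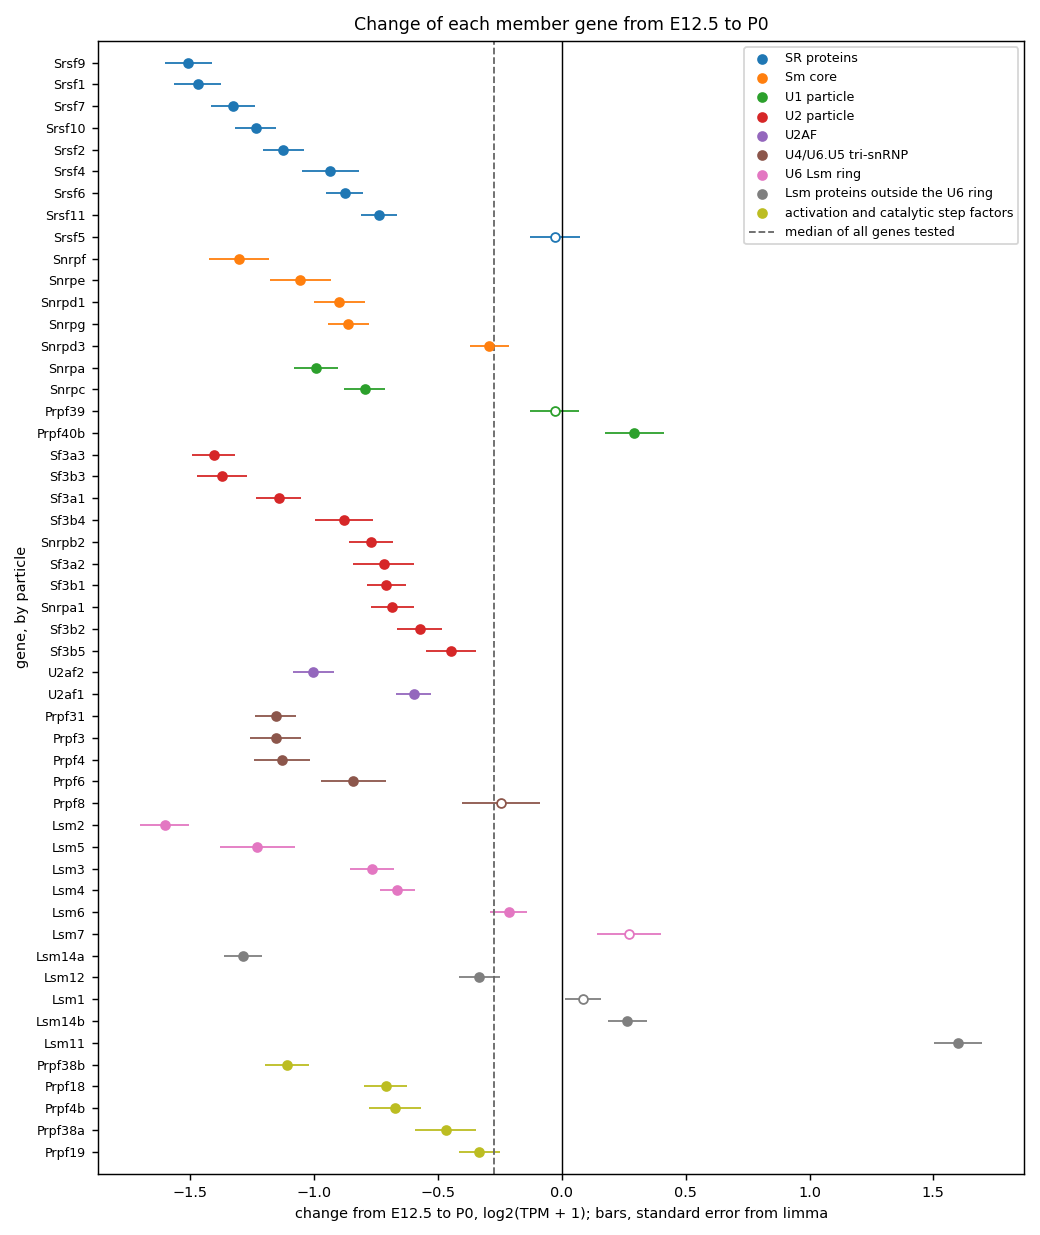
Change from E12.5 to P0 of each of 51 of the genes on the log2(TPM + 1) scale (x axis), grouped by particle (y axis); bars are standard errors from limma with 2 libraries a stage, filled points passed the test and open points did not, and the dashed line is the median of all 6048 genes tested (-0.275). Lsm2 lies lowest at -1.60, Lsm11 highest at 1.60, and the open points are Srsf5, Prpf39, Prpf8, Lsm7 and Lsm1.

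Because TPM are shares of a total, they were also rescaled by the median of ratios between libraries, which moved the median change of all genes by 0.268, to -0.007. On that scale 38 of the 52 genes fell and 7 rose, against 37.7% and 37.9% of all genes tested (75.6% called), and the median of the 52 was -0.55. Beside the median of all genes, the set was lower on both scales. The genes that no longer fell were Snrpd3, Sf3b5, Lsm12, Prpf19, Prpf38a and Lsm6, of which Lsm6 had a value of 0.06. Lsm1, Lsm7, Prpf39 and Srsf5 joined the genes that rose.

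The summed TPM of the 52 genes fell from 11563.9 ± 232 (SD, n = 2) at E12.5 to 6630.0 ± 154 at P0. That was 57.3% of the E12.5 level, and no library of one stage reached those of the other. The share of these genes in all TPM went from 1.17% and 1.14% in the E12.5 libraries to 0.652% and 0.674% in the P0 libraries. The plot of sums by particle shows that 8 of the 9 groups followed this course.

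**Figure D2:**
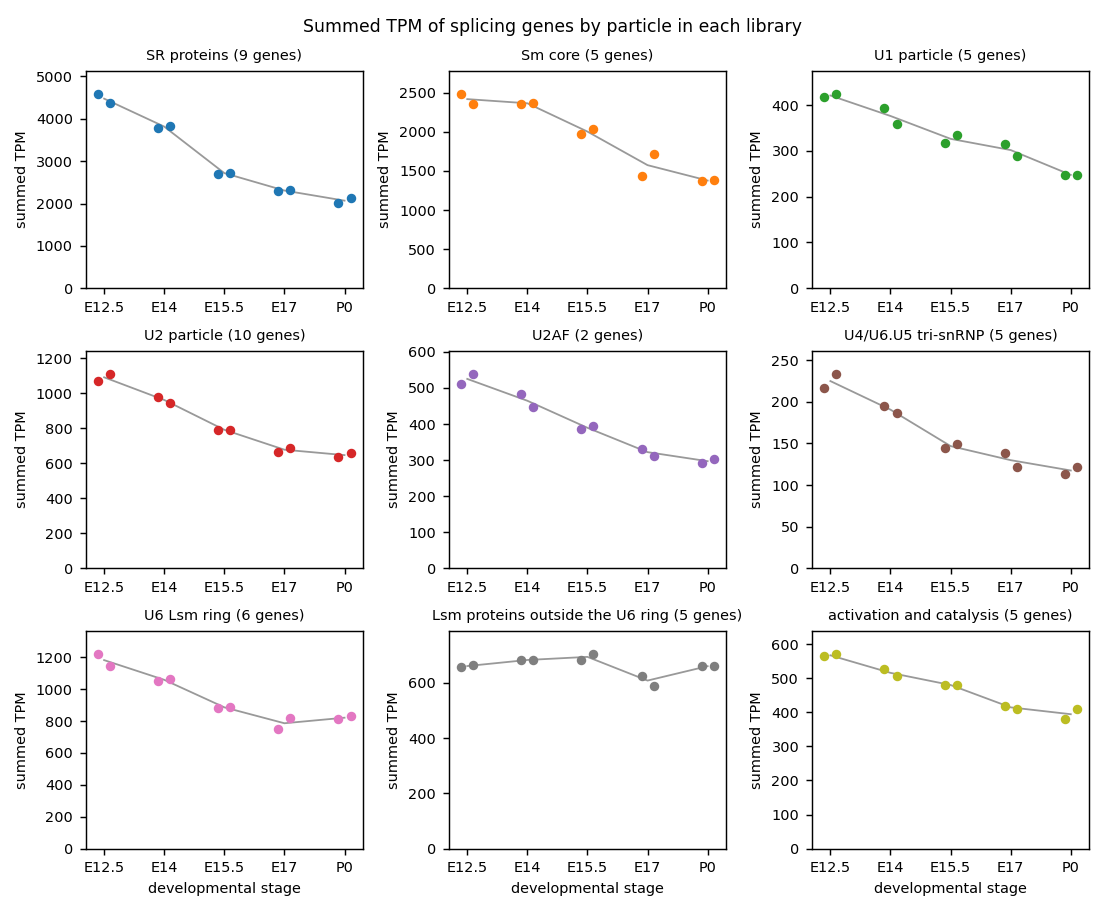
Summed TPM (y axis, starting at 0) of each group of genes in every library at the 5 stages (x axis); points are libraries, 2 a stage, and lines join the stage means. The SR proteins went from 4584 and 4363 TPM at E12.5 to 2013 and 2121.5 at P0, while the Lsm proteins outside the U6 ring were at 658 and 664 TPM and at 661 and 659.7.

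The SR proteins were the most abundant group, and 8 of 9 fell between E12.5 and P0, with a median of -1.12. For this and the groups below, 51% of all genes tested fell in that comparison, with a median of -0.275. Under median-of-ratios scaling 8 of the 9 SR genes fell, beside 37.7% of all genes. Their summed TPM was 4473.6 ± 157 at E12.5 and 3814 ± 32.5 at E14. It was then 2717 ± 16.95 by E15.5, 2306 ± 8.72 by E17 and 2067.5 ± 76.5 at birth. The P0 sum was 46.2% of the E12.5 sum, a 2.16-fold decrease.

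Srsf1, the founding member of the family, had the highest mean level of the 52 genes, 903 TPM. It was at 1462 and 1352 TPM at E12.5, 1189.6 and 1176 at E14, 812.5 and 829 at E15.5, 559 and 639 at E17, and 475 and 541 at P0. The libraries of successive stages did not overlap, and each stage lay below the one before. The change was -1.47 ± 0.0953 (SE, adjusted p = 5.36e-08), a 2.77-fold decrease in mean TPM.

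Srsf9 had the largest fall of the group on the log2 scale. Its level was 203 and 202 TPM at E12.5, 174 and 180.0 at E14, 123 and 111 at E15.5, 101.5 and 90.4 at E17, and 76.3 and 65.1 at P0. The stages again did not overlap, and the change was -1.51 ± 0.0943 (adjusted p = 3.92e-08). Srsf7, which carries a zinc knuckle beside its RNA recognition motif, went from 609 and 585 TPM to 227.5 and 248 (-1.33 ± 0.0874). Srsf10, known as a splicing repressor when dephosphorylated, went from 485 and 432 TPM to 191 and 197 (-1.24 ± 0.0834).

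Srsf2, a marker of nuclear speckles, reached its low level earlier. It was at 870.4 and 868 TPM at E12.5, 725 and 684.5 at E14, 471.5 and 464 at E15.5, 413 and 365 at E17, and 414 and 383 at P0. The E17 and P0 libraries overlapped, and the change between those stages was 0.04 ± 0.0831 (adjusted p = 0.744). Srsf6 reached its low level by E15.5, and no later step was called, with 343 and 334 TPM at E12.5, 191 and 185.5 at E15.5, and 178 and 190.0 at P0.

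Srsf11 moved in 2 separate falls, and Srsf4 had the largest SE of the group. Srsf11 was at 144 and 145 TPM at E12.5, 133 and 137.5 at E14, 113 and 112 at E15.5, 137 and 123 at E17, and 86.7 and 85.7 at P0. Its falls at E14 to E15.5 (-0.26, adjusted p = 0.0115) and at E17 to P0 (-0.58, adjusted p = 0.000178) passed the test, and the higher E17 value between them did not (0.20, adjusted p = 0.0693). Srsf4 went from 127 and 132 TPM at E12.5 to 67.4 and 67.1 at P0 (-0.93 ± 0.116), with 93.6 and 89.2 at E15.5.

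Srsf5 did not share the fall. Its level was 342 and 313 TPM at E12.5, 266 and 311 at E14, 239 and 252 at E15.5, 285 and 262 at E17, and 298 and 345 at P0, so the first and last stage overlapped. The change was -0.03 ± 0.101 (adjusted p = 0.803). It had a positive sign under median-of-ratios scaling (0.25, adjusted p = 0.0431) and when E12.5 replicate 1 (0.03) or P0 replicate 1 (0.08) was left out. At E12.5 the Srsf5 libraries overlapped those of Srsf6 and lay below those of Srsf10. At P0 they lay above those of Srsf6, Srsf10 and Srsf7 and below those of Srsf2, with no overlap with any of these.

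Genes of the SR family are known for exons whose inclusion sends the transcript to nonsense-mediated decay. In the GENCODE annotation 8 of the 9 SR genes have a transcript of that class, as do 17 of the other 43 genes, and 7 of 9 and 32 of 43 have a retained-intron transcript. The deposited values are 1 per gene and do not separate such transcripts from coding ones. Srsf2 (chromosome 11, 116849901 to 116853094, reverse strand) overlaps Mettl23 and Mfsd11 on the opposite strand, 17 of the 52 genes overlap some gene on the other strand, and the strand setting of the authors' counting was not given in the sources used here.

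The Sm proteins form the ring that the snRNA threads through. All 5 that were measured fell, with a median of -0.90, beside 51% and -0.275 for all genes tested. Under median-of-ratios scaling 4 of the 5 fell, beside 37.7% of all genes. Snrpf had the largest fall and Snrpd3 the smallest. Snrpf was at 490.3 and 425.5 TPM at E12.5, 442 and 422 at E14, 336.5 and 331 at E15.5, 240.5 and 301 at E17, and 167 and 203 at P0 (-1.30 ± 0.12, adjusted p = 1.16e-06). Snrpd3 was at 557.5 and 557 TPM at E12.5, 568.5 and 556 at E14, 513 and 540.1 at E15.5, 428 and 474 at E17, and 438 and 472.5 at P0 (-0.29 ± 0.0799, adjusted p = 0.00554).

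The other Sm genes lay between these values, and differences between the genes of a ring were not tested. Snrpe went from 389 and 372 TPM to 188 and 177 (-1.06), Snrpd1 from 545 and 534.5 to 294 and 285 (-0.90), and Snrpg from 501 and 462 to 279 and 249.8 (-0.86). The fall of Snrpd3 was not called under median-of-ratios scaling (-0.02, adjusted p = 0.894). Small Sm and Lsm genes have processed copies elsewhere in the mouse genome, and the counting of reads shared with such copies was not given in the sources used here.

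The U1 particle recognises the start of the intron. Its RNA-binding protein Snrpa went from 161 and 172 TPM at E12.5 to 83.5 and 82.8 at P0 (-0.99 ± 0.088), and Snrpc, which steadies the pairing of U1 with the splice site, from 175 and 168 to 102 and 95.0 (-0.79 ± 0.0824). Both fell.

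Prpf40b and Prpf39, relatives of yeast U1 proteins, did not fall. Prpf40b was at 17.1 and 18.2 TPM at E12.5, 17.9 and 17.1 at E14, 20.9 and 21.5 at E15.5, 27.6 and 21.3 at E17, and 22.2 and 21.5 at P0. It rose by 0.29 ± 0.119 (adjusted p = 0.0414), a call that was lost in 9 of the 21 alternatives. Among these were leaving out any 1 library of E12.5, E14, E15.5 or P0, where the adjusted p lay between 0.0613 and 0.183. Prpf39 dipped at E15.5, with 24.6 and 24.9 TPM at E12.5, 22.8 and 25.2 at E14, 18.1 and 17.9 at E15.5, 23.7 and 21.1 at E17, and 23.5 and 25.0 at P0. Its P0 value was -0.03 from E12.5 (adjusted p = 0.802), and 0.24 under median-of-ratios scaling, 0.26 after quantile normalization and 0.01 without P0 replicate 1.

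The U2 particle binds the branch site through the SF3A and SF3B complexes. All 10 of its genes among the 52 fell, with a median of -0.74, beside 51% and -0.275 for all genes tested. Under median-of-ratios scaling 9 of the 10 fell, beside 37.7% of all genes. Sf3a3 had the largest fall, from 75.7 and 76.1 TPM at E12.5 to 62.7 and 58.1 at E14, 46.7 and 44.9 at E15.5, 30.2 and 32.05 at E17, and 26.6 and 29.5 at P0 (-1.41 ± 0.0875, adjusted p = 3.75e-08). Sf3b5 had the smallest, from 235 and 242 TPM at E12.5 to 171 and 169 at E15.5, 137 and 170.1 at E17, and 187 and 163 at P0 (-0.45 ± 0.102, adjusted p = 0.00181). Its fall was not called under median-of-ratios scaling (-0.17, adjusted p = 0.239).

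Within SF3A and SF3B the changes covered most of this range. In SF3B, Sf3b3 went from 76.3 and 83.0 TPM to 27.6 and 32.9 (-1.37). Sf3b1, which holds the branch site and is the best known drug target of the spliceosome, went from 104.8 and 106 to 62.1 and 66.3 (-0.71). In SF3A, Sf3a1 changed by -1.14 and Sf3a2 by -0.72. The paired core proteins Snrpb2 and Snrpa1 changed by -0.77 and -0.68, Sf3b4 by -0.88 and Sf3b2 by -0.57.

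U2AF finds the end of the intron, where U2af2 binds the pyrimidine tract and U2af1 the final AG. U2af2 went from 292 and 313 TPM at E12.5 to 147 and 154 at P0 (-1.002 ± 0.0845). U2af1 went from 219 and 225 to 144 and 149 (-0.60 ± 0.0693). Both fell, and at P0 the levels of the partners overlapped, which they did not at E12.5.

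Of the tri-snRNP genes among the 52, 4 of 5 fell, with a median of -1.13, beside 51% and -0.275 for all genes tested. Under median-of-ratios scaling 4 of the 5 fell, beside 37.7% of all genes. Prpf31 and Prpf4, both of the U4/U6 particle, went from 89.6 and 93.4 TPM to 39.7 and 41.4 (-1.16), and from 42.55 and 44.9 to 19.6 and 19.3 (-1.13). Prpf3, their partner and the gene with the lowest mean of the 52 (15.1 TPM), went from 21.6 and 23.2 to 9.36 and 9.62 (-1.16). Prpf6, which bridges U5 to U4/U6, changed by -0.84.

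Prpf8, the scaffold of the catalytic centre, was not called. It was at 36.1 and 41.8 TPM at E12.5, 33.3 and 34.8 at E14, 29.5 and 30.9 at E15.5, 48.0 and 32.0 at E17, and 30.6 and 34.8 at P0. Its P0 libraries did not reach those of E12.5, and the change was -0.24 ± 0.157 (adjusted p = 0.173). The E17 libraries lay far apart, and without either of them the same change was called lower, with an adjusted p of 0.0146 without replicate 1 and 0.0143 without replicate 2. The sign was positive after median-of-ratios scaling (0.03) and quantile normalization (0.02).

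Of the 6 genes of the U6 Lsm ring that were measured, 5 fell and Lsm7 was not called, while 51% of all genes tested fell. Under median-of-ratios scaling 4 of the 6 fell and 1 rose, beside 37.7% and 37.9% of all genes. Lsm2 had the largest fall of all 52 genes, from 159 and 151 TPM at E12.5 to 113 and 112 at E14, 66.0 and 63.6 at E15.5, 62.8 and 54.3 at E17, and 54.8 and 46.1 at P0. Its change was -1.60 ± 0.0981 (adjusted p = 3.26e-08), a 3.07-fold decrease in mean TPM. Lsm5, with 154.8 and 126 TPM at E12.5 and 59.5 and 58.4 at P0, changed by -1.23, Lsm3 by -0.77 and Lsm4 by -0.66.

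Lsm6 and Lsm7, of the same ring, moved little. Lsm6, the most abundant of the 6, went from 469 and 435 TPM to 385 and 393 (-0.21 ± 0.0741, adjusted p = 0.0197). That call was lost without E12.5 replicate 1 (adjusted p = 0.163) or P0 replicate 1 (adjusted p = 0.0589), and the value was 0.06 under median-of-ratios scaling. Lsm7 was at 92.1 and 93.8 TPM at E12.5, 94.6 and 82.4 at E14, 96.7 and 100.1 at E15.5, 98.45 and 128 at E17, and 101 and 125.2 at P0, a change of 0.27 ± 0.13 (adjusted p = 0.0764). It passed the test in 8 of the 21 alternatives, among them leaving out E17 replicate 1 (adjusted p = 0.0101), E17 replicate 2 (0.0102) or P0 replicate 1 (0.0293). Lsm2 to Lsm7 also serve, with Lsm1 in place of Lsm8, in the cytoplasmic ring that promotes decapping of mRNA.

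The 5 Lsm genes outside the U6 ring were mixed in direction: 2 fell, 2 rose, 1 was not called, and their median was 0.09. Their summed TPM was 661 ± 4.41 at E12.5 and 660.6 ± 1.25 at P0. Whether this group differs from the others was not tested.

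Lsm11, a protein of the U7 snRNP that cuts the ends of histone pre-mRNAs, rose most of the 52 genes. It was at 29.1 and 32.1 TPM at E12.5, 36.4 and 32.2 at E14, 41.6 and 42.1 at E15.5, 52.1 and 47.8 at E17, and 89.5 and 100.2 at P0. Successive stages did not overlap, with 32.1 TPM as the highest value at E12.5 and 32.2 as the lowest at E14, and the P0 libraries stood well above all others. The change was 1.60 ± 0.0981 (adjusted p = 3.31e-08), a 3.10-fold increase in mean TPM, and it was called under all 21 alternatives (1.37 to 1.87). The gene lies on chromosome 11 (45928269 to 45944935, reverse strand).

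Lsm14a and Lsm14b are closely related proteins of cytoplasmic mRNA granules, and they moved apart. Lsm14a was at 148 and 146 TPM at E12.5, 135.5 and 133 at E14, 92.9 and 94.4 at E15.5, 82.8 and 78.6 at E17, and 56.3 and 62.9 at P0 (-1.29 ± 0.0766, adjusted p = 2.56e-08). Lsm14b was at 216.5 and 225 TPM at E12.5, 245 and 247 at E14, 298 and 326 at E15.5, 262 and 235 at E17, and 270.1 and 261 at P0 (0.26 ± 0.0792, adjusted p = 0.00931). The rise of Lsm14b lost its call without E12.5 replicate 1 (adjusted p = 0.0672). Its highest stage was E15.5, and the fall from there to E17 passed the test (-0.33, adjusted p = 0.0134).

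Lsm1, the decapping member, had the smallest F statistic over stages of the 52 genes. Its values lay between 116.5 and 129.8 TPM in all 10 libraries, and the difference between E12.5 and P0 did not pass (0.09 ± 0.0722, adjusted p = 0.287). Under median-of-ratios scaling it was higher at P0 by 0.36 (adjusted p = 0.00197). Lsm12 went from 146 and 143 TPM to 124 and 106 (-0.33, adjusted p = 0.00343), a change that was -0.06 and not called under median-of-ratios scaling.

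**Figure D3:**
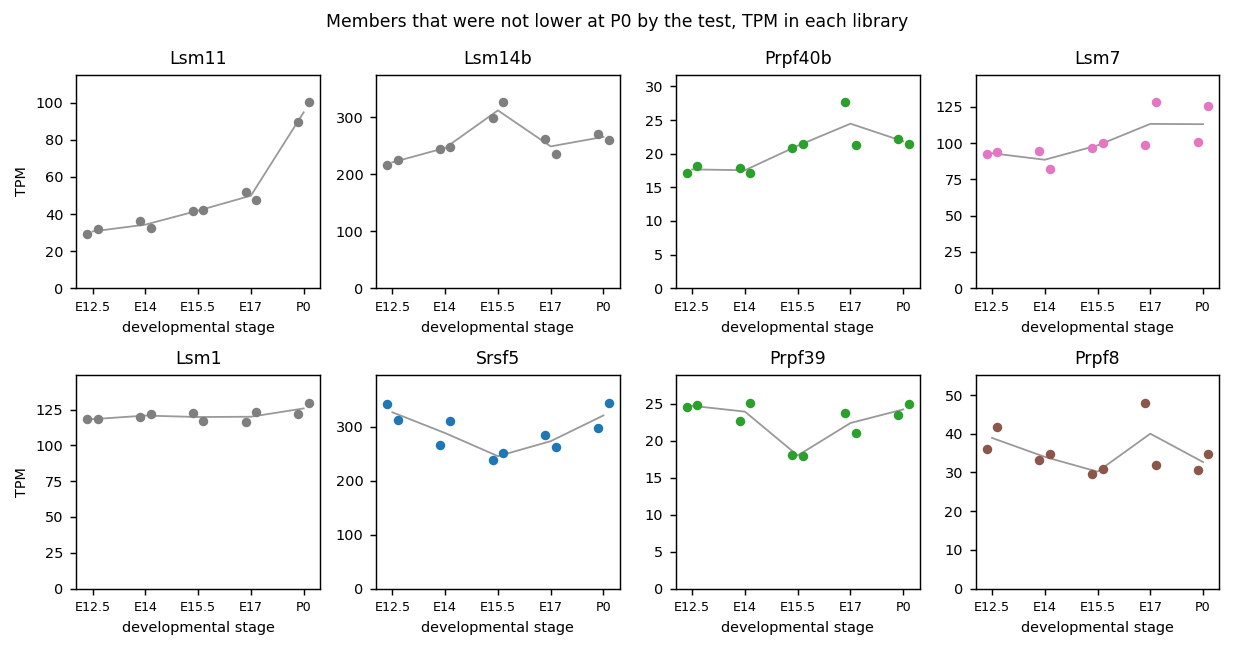
TPM (y axes, each starting at 0) of the 8 genes that were not called lower at P0, in every library at the 5 stages (x axes); points are libraries, 2 a stage, and lines join the stage means. Lsm11, Lsm14b and Prpf40b passed the test upward, Srsf5 and Prpf39 dipped at E15.5, and E17 replicate 1 of Prpf8 stood at 48.0 TPM beside 32.0 in replicate 2.

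The last group acts in activation and catalysis, and all 5 genes fell, beside 51% of all genes tested. Under median-of-ratios scaling 3 of the 5 fell, beside 37.7% of all genes. Prpf38b had the largest fall, from 69.8 and 63.3 TPM to 28.8 and 31.9 (-1.11 ± 0.0895). Prpf19, the ubiquitin ligase that names a large activating complex, had the smallest, from 244 and 266 TPM to 206 and 199 (-0.33 ± 0.0838). Prpf18, a factor of the second catalytic step, changed by -0.71, the kinase Prpf4b by -0.67 and Prpf38a, a protein of the precatalytic complex, by -0.47. The call for Prpf38a was lost without P0 replicate 1 (adjusted p = 0.0609), and those for Prpf38a (-0.195) and Prpf19 (-0.06) were lost under median-of-ratios scaling.

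The timing was then followed step by step. Of the 44 genes that fell, 8 had no single step called lower, 15 had 1, 13 had 2 and 8 had 3. The largest fall was between E14 and E15.5 for 19 of the 44, between E15.5 and E17 for 16, between E17 and P0 for 8 and between E12.5 and E14 for 1. The mean was lower at every step for 27 of the 52 genes. These counts were not made for all genes tested, so whether this timing is particular to the 52 was not tested. Of all genes tested, 4.78% were called lower between E12.5 and E14, and 33.3% between E14 and E15.5. The share was 10.6% between E15.5 and E17, and 28.8% between E17 and P0. The heat map lays the courses of the genes side by side.

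**Figure D4:**
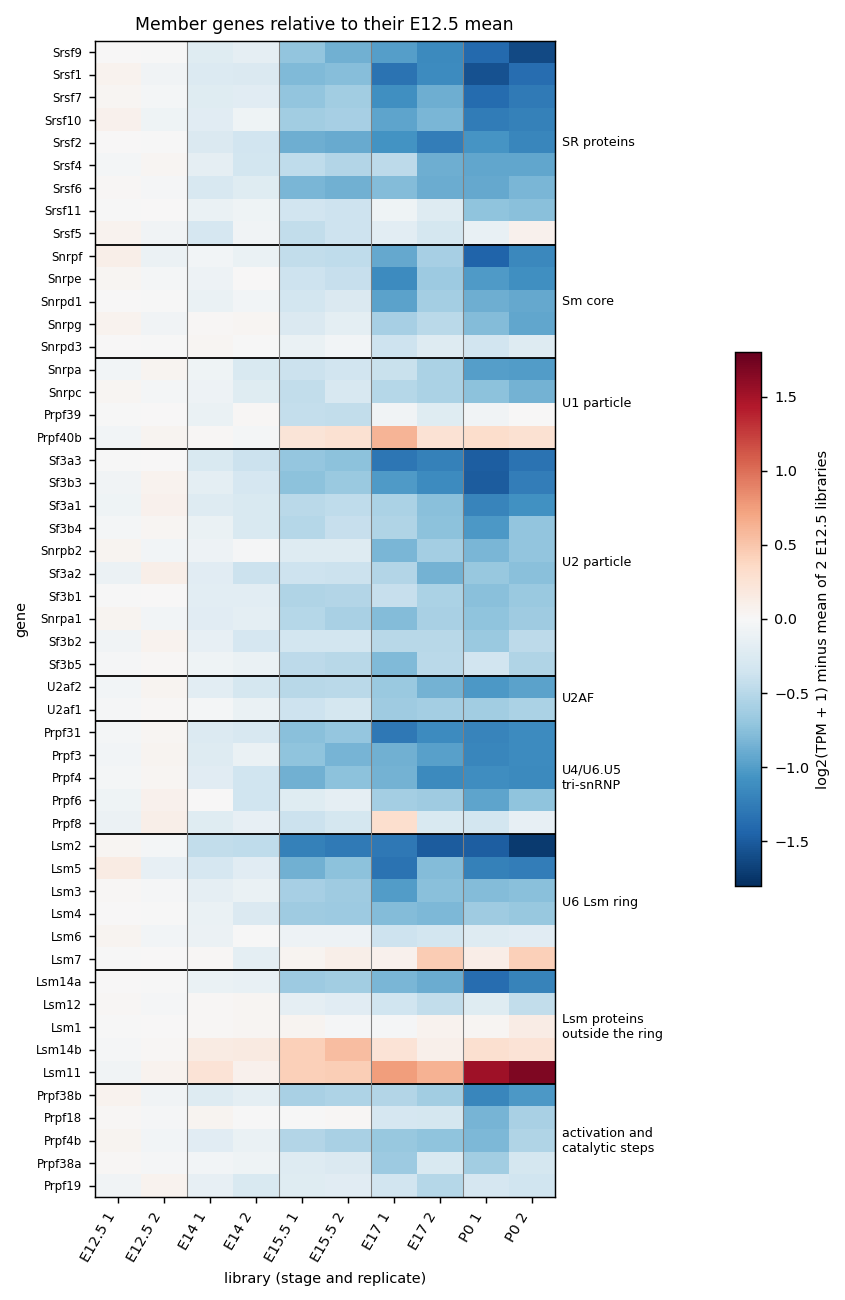
Colour shows log2(TPM + 1) of each of 51 genes (rows, grouped by particle) in each of the 10 libraries (columns) minus the mean of the 2 E12.5 libraries; blue is lower and red higher. Blue deepens from E15.5 on in most rows, Lsm11 turns red, and the 2 E17 columns differ within many rows.

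Between E12.5 and E14, 3 of the 52 genes fell and 0 rose, with 8.73% of all genes called (3.95% higher, 4.78% lower). The 3 were Lsm2 (-0.46 ± 0.0981, adjusted p = 0.0164), Sf3a3 (-0.33 ± 0.0875, adjusted p = 0.0413) and Srsf2 (-0.30 ± 0.0831, adjusted p = 0.0455). Their E12.5 libraries lay above their E14 libraries with no overlap. These calls were lost when any 1 library of E12.5 or E14 was left out, which leaves 1 library in a compared stage. Those of Sf3a3 and Srsf2 were also lost without either E15.5 library, a stage outside the comparison. Sf3a3 lost its call with quantile normalization (limma adjusted p = 0.0807) and with the replicate number added to the fit (0.0641). Srsf2 lost its call without a variance trend (0.0638). More genes were called without an E17 library, among all genes tested as well as the 52. The fit shares its estimate of the spread over all stages, and the cause of the higher counts was not tested. The median of the 52 was -0.18, beside -0.06 for all genes, and 45 of them had a negative sign. With median-of-ratios scaling 1 of the 52, Lsm2, was called lower, against 12.2% of all genes (7.14% higher, 5.01% lower).

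Between E14 and E15.5, 30 genes fell and 2 rose, with 51.7% of all genes called (33.3% lower, 18.4% higher). The median was -0.27, beside -0.13 for all genes. Lsm2 (-0.79 ± 0.0981, adjusted p = 4.89e-05), Srsf9 (-0.60 ± 0.0943) and Prpf3 (-0.60 ± 0.103) had the largest falls. By group, 7 of 9 SR genes fell, 3 of 5 Sm genes, 3 of 5 U1 genes, 5 of 10 U2 genes, both U2AF genes, 3 of 5 tri-snRNP genes, 4 of 6 genes of the U6 ring, 1 of 5 other Lsm genes and 2 of 5 activation and catalysis genes. Those that rose were Lsm14b (0.34 ± 0.0792, adjusted p = 0.00399) and Lsm11 (0.28 ± 0.0981, adjusted p = 0.0317). Lsm14b lost its call without E15.5 replicate 2 (adjusted p = 0.0622), and Lsm11 without E14 replicate 2 (0.233), E15.5 replicate 1 (0.116) or E15.5 replicate 2 (0.138). The number called was 21 without E14 replicate 2 and 19 without E15.5 replicate 2. With median-of-ratios scaling, which moved the median of all genes by 0.119 at this step, 19 of the 52 fell and 3 rose, against 25.7% and 26.1% of all genes (51.8% called).

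Markers of other tissues changed at the same step. The 5 meningeal genes Col1a1, Col1a2, Col3a1, Dcn and Lum summed to between 106 and 111 TPM at E14 and between 2.80 and 3.03 at E15.5. The 2 choroid plexus genes in the table, of 5 listed, went from between 1405 and 1517 TPM to between 3.46 and 4.25, and the 2 embryonic globins, of 7 blood genes listed, from between 1878 and 1973 to between 8.38 and 9.12. None of these was at 0 in any library except Hbb-bh1, at P0. The comparison of E12.5 with P0 spans the same step. The meningeal genes summed to between 172.6 and 172.8 TPM at E12.5 and between 2.22 and 2.57 at P0. The globins went from between 4318 and 4490 TPM at E12.5 to between 1.88 and 2.31 at P0. The choroid plexus genes were at between 302.6 and 451.5 TPM at E12.5, below their E14 level. At P0 they were at between 3.065 and 4.57 TPM. The 9 proliferation genes in the table, all of which fell from E12.5 to P0, went from between 905 and 947 TPM at E14 to between 423 and 431 at E15.5. The 10 synaptic and neuronal genes, all of which rose, went from between 1164 and 1165 to between 3102 and 3189. The part of these changes in the splicing genes' levels was not tested. The 7 neocortex markers in the table, of 10 listed, were above 0 in every library and summed to between 1023 and 1646 TPM. From E12.5 to P0, 4 of these 7 fell and 2 rose. C1qb, the 1 microglial gene in the table of 6 listed, was not called. It was at between 7.96 and 8.23 TPM at E12.5 and between 7.07 and 7.81 at P0. Cdh5, the 1 endothelial gene in the table of 5 listed, fell. It was at between 13.9 and 15.3 TPM at E12.5 and between 1.025 and 1.28 at P0.

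Between E15.5 and E17, 19 of the 52 genes fell and 1 rose, with 25% of all genes called (10.6% lower, 14.4% higher). The median was -0.22, beside 0.015 for all genes. The largest falls were those of Sf3a3 (-0.54 ± 0.0875, adjusted p = 0.00174), Snrpe (-0.50 ± 0.123, adjusted p = 0.0145) and Snrpd1 (-0.49 ± 0.102, adjusted p = 0.00629). Snrpe lost its call without E15.5 replicate 1 (adjusted p = 0.1) or replicate 2 (0.0753), and Snrpd1 without E15.5 replicate 2 (0.0653). Prpf39 rose back (0.30 ± 0.0993, adjusted p = 0.0481), a call lost in 13 alternatives, with adjusted p between 0.0523 and 0.25. The number called was 5 when E15.5 replicate 1 was left out and 3 when replicate 2 was. By group, 5 of 9 SR genes fell, 3 of 5 Sm genes, 1 of 5 U1 genes, 3 of 10 U2 genes, both U2AF genes, 2 of 5 tri-snRNP genes, 1 of 6 genes of the U6 ring, 1 of 5 other Lsm genes and 1 of 5 activation and catalysis genes.

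The E17 libraries differed from each other more than those of other stages. Over the 52 genes, the replicate difference had an SD in log2 units of 0.233 for E17 and of 0.062 to 0.152 for the other stages. Over all genes it was 0.285 and 0.088 to 0.176. Across the 52 genes, E17 replicate 1 minus replicate 2 had a correlation with the length of the longest coding transcript of r = 0.46 (rho = 0.33), a description of 2 libraries. Long Prpf8 was higher in replicate 1, and short Snrpe, at 173 and 240.3 TPM, was higher in replicate 2. From E15.5 to E17 the median of the 52 genes was -0.225 without E17 replicate 1, beside -0.052 for all genes. Without replicate 2 it was -0.176, beside 0.093 for all genes.

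Between E17 and P0, 15 genes fell and 1 rose, with 41.7% of all genes called. The share of the 52 that fell, 28.8%, was that of all genes tested (28.8%), and the median was -0.14 beside -0.10. Srsf11 (-0.58 ± 0.0742, adjusted p = 0.000178), Snrpf (-0.54 ± 0.12, adjusted p = 0.00483) and Prpf38b (-0.53 ± 0.0895, adjusted p = 0.000975) had the largest falls, and Lsm11 rose by 0.91 ± 0.0981 (adjusted p = 5.89e-05). Snrpf lost its call without P0 replicate 1 (adjusted p = 0.0603). With median-of-ratios scaling, which moved the median of all genes by 0.108, 8 fell (15.4%) and 4 rose. Of all genes 22.6% fell and 21.4% rose (44% called). Higher genes made up 33.3% of the calls among the 52 and not 6.25%. Over all genes they made up 1292 of 2661 calls and not 781 of 2525, so this share moved with the scaling there too. Without E17 replicate 2 the median of the 52 was -0.099, beside -0.179 for all genes.

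Over all stages at once, limma's F test called 49 of the 52 genes, with 82.9% of all genes called. The 3 not called were Lsm1 (adjusted p = 0.798), Prpf8 (0.173) and Lsm7 (0.0837). The P0 libraries were both lower than the lower E12.5 library for 45 of the 52 genes, as for 58.4% of all genes tested, and above them for 5, as for 32.5%. Srsf5 and Prpf39 were the 2 whose libraries overlapped.

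Related genes were compared within each library, so that the scale of the library drops out. Of the 7 pairs tested, Lsm14b minus Lsm14a changed most: the difference in log2(TPM + 1) was 0.55 and 0.62 at E12.5, 0.85 and 0.885 at E14, 1.67 and 1.775 at E15.5, 1.65 and 1.57 at E17, and 2.24 and 2.03 at P0. The exact permutation test over stage labels gave p = 0.00106, the smallest that it can give, and 0.00741 after adjustment over the 7 pairs.

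The 5 other pairs shown did not pass. The test asks for any difference over the 5 stages and not for the change from E12.5 to P0 alone. U2af1 minus U2af2 went from -0.44 ± 0.042 (SD, n = 2) to -0.04 ± 0.012 (exact permutation p = 0.0402, adjusted 0.0938), and passed without E17 replicate 1 (adjusted p = 0.0123) or replicate 2 (0.013). Prpf38b minus Prpf38a changed by -0.64 between E12.5 and P0 (exact permutation p = 0.0624, adjusted 0.109), and also passed without either E17 library (adjusted 0.0123 and 0.00988). Srsf4 minus Srsf6, Snrpa minus Snrpb2 and Srsf9 minus Srsf1 changed by -0.06, -0.22 and -0.04 between E12.5 and P0. Over the 5 stages their adjusted p were 0.194, 0.221 and 0.838 in the exact permutation test. That a pair did not pass does not show that its genes changed alike.

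**Figure D5:**
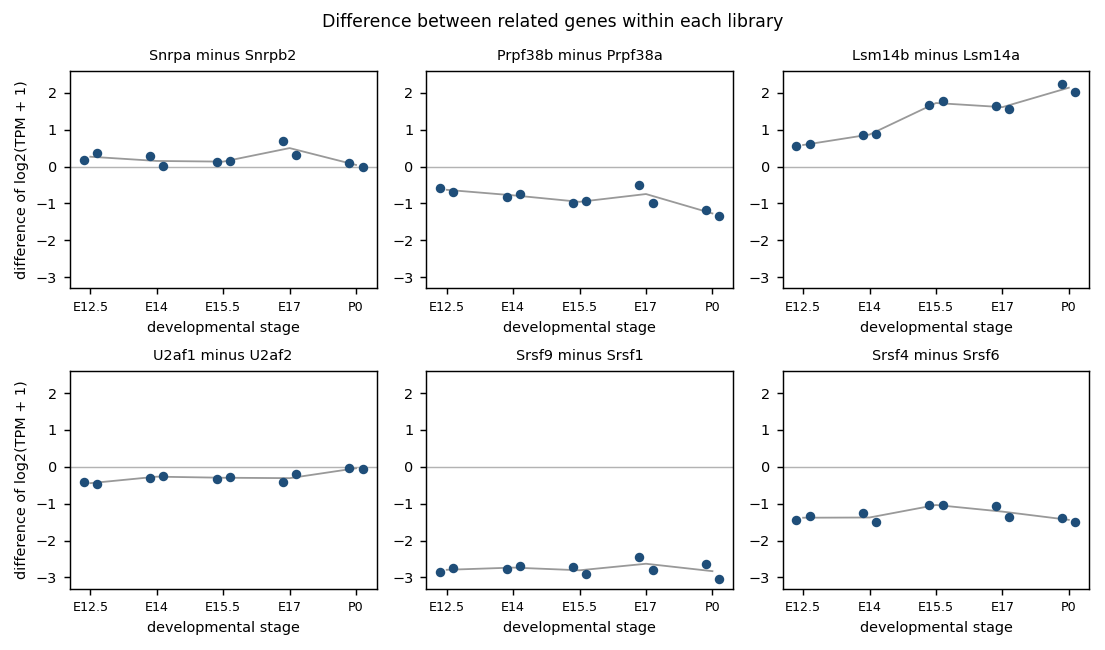
Difference in log2(TPM + 1) between the genes of each pair shown within each library (y axis) at the 5 stages (x axis); points are libraries, 2 a stage, lines join the stage means and the horizontal line marks equal levels. Lsm14b minus Lsm14a climbs from 0.58 to 2.14 in stage means, and Srsf9 minus Srsf1 stays between -3.035 and -2.45 in all libraries.

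Promoter sequence is shown for 2 genes that fell (Srsf9, Srsf2) and 2 that rose (Lsm11, Lsm14b), to set genes of opposite direction side by side. RefSeq promoter entries on GRCm38.p6 were found for 43 of the 52 genes, and the 33 with exactly 1 entry were searched over 250 bases before the start. The 150 bases before the start are printed 5′ to 3′ on the strand of the gene, at chr5:115327027-115327176 (forward), chr11:116853095-116853244 (reverse), chr11:45944936-45945085 (reverse) and chr2:180024837-180024986 (forward). Capitals mark matches to the motifs searched.
Srsf9: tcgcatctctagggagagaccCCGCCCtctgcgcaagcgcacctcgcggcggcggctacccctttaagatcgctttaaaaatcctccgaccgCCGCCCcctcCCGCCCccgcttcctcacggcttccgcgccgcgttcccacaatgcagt
Srsf2: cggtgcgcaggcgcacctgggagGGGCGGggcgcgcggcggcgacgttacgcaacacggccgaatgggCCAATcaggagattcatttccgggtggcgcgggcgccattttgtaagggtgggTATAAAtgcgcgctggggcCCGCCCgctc
Lsm11: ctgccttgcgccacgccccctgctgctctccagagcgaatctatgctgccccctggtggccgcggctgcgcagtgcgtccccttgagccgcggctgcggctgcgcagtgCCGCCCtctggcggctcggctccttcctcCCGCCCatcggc
Lsm14b: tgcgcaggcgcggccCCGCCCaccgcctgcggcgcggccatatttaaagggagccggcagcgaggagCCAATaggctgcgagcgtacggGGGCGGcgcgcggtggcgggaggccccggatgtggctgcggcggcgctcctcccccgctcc

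The motifs were CCAAT (the CCAAT box), TATAAA (the TATA box), GGGCGG (the GC box of Sp factors), CCGGAAG (ETS factors), GCATGCGC (part of the NRF1 site) and TTCCCGC (E2F factors), on both strands; matches of GGGCGG and TTCCCGC can share letters. Srsf2 has TATAAA starting 29 bases before its start, CCAAT at 82 and GC boxes at 127 and 10. Lsm14b also has CCAAT, at 83, with GC boxes at 135 and 61, while Srsf9 has 3 GC boxes and Lsm11 has 2 and no other motif of the list in the printed stretch. Of the 33 promoters, GGGCGG was in 66.7%, beside 66.5% of those of the tested genes and 32.7% of all promoters. CCAAT was in 36.4%, 36.6% and 33.8%, and TATAAA in 6.06%, 4.9% and 12.4%. CCGGAAG was in 33.3% (11 of 33, Srsf5, Srsf7, Sf3a3 and Sf3b3 among them), 17% and 6.91%. TTCCCGC was in 15.2% (Srsf1, Srsf10, Lsm3, Lsm14a and Prpf6), 7.67% and 3.82%, and GCATGCGC in 3.03% (Srsf7), 5.86% and 2.26%. A match is a string of letters and not a site in use, and these shares were not tested.

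Other splicing factors were taken from 9 lists of 105 genes, of which 87 could be tested. From E12.5 to P0, 72 fell, 4 rose and 11 did not pass, with a median of -0.64 beside -0.275 for all genes, of which 51% fell and 27.1% rose. Under median-of-ratios scaling 55 fell and 10 rose, beside 37.7% and 37.9% of all genes.

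Among proteins of the U1 and U11/U12 particles, 5 of 9 fell and 1 rose, near the 51% of all genes that fell, and their median was -0.35 beside -0.275. Luc7l2 changed by -1.01 ± 0.092, and its relative Luc7l by 0.54 ± 0.09, from 114 ± 0.282 (SD, n = 2) to 166 ± 0.556 TPM. Snrnp70, a core protein of U1, fell from 271 ± 4.74 to 156 ± 16.6 TPM (-0.80 ± 0.096). Of the U2-associated proteins 8 of 10 fell, from Rbm10 at -1.375 ± 0.11 to Sugp1, not called, at 0.14 ± 0.096. Of U5 and tri-snRNP proteins 10 of 11 fell. Eftud2, the GTPase beside Prpf8, had the largest fall (-1.17 ± 0.101), and the helicase Snrnp200 changed by -0.90 ± 0.124, while Snrnp27 was at -0.14 ± 0.127 and not called.

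Of the Prp19 complex and its relatives 15 of 17 fell, and Aqr, a helicase, had the largest fall of these lists (-1.66 ± 0.132, from 20.5 to 5.82 TPM). Cwc22, which brings the exon junction complex to the spliceosome, rose (0.64 ± 0.237, adjusted p = 0.0276). All 7 factors of the second step and release fell, from Cdc40 at -1.075 to Slu7 at -0.35, and so did all 5 exon junction proteins, from Pnn at -0.99 to Eif4a3 at -0.675 on the log2 scale.

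Most SR-related and snRNP assembly genes fell, while the SR kinases and their importer were mixed. Of SR-related proteins 10 of 11 fell, with Thrap3 at -1.34 ± 0.134 and Scaf1, not called, at 0.18 ± 0.139. Of the SR kinases and their importer, Srpk1 fell (-0.72 ± 0.076) and Srpk2 rose (0.59 ± 0.074, from 72.35 to 109 TPM), Tnpo3 fell (-0.50) and Clk3 was not called (-0.14, adjusted p = 0.147). Of 13 snRNP assembly genes 10 fell, with Gemin2, a partner of the SMN protein that loads Sm rings, at -1.48 ± 0.102, and Phax, an exporter of snRNA, rose by 0.31 ± 0.095 (adjusted p = 0.0103). Under median-of-ratios scaling 3 fell and 2 rose among the U1 and U11/U12 proteins, 6 and 2 among the U2-associated proteins, 8 and 0 among the U5 and tri-snRNP proteins, and 10 and 2 in the Prp19 list. In the other lists 6 and 0 did so in the second step, 5 and 0 in the exon junction complex, 8 and 1 among SR-related proteins, 2 and 1 among SR kinases and transport, and 7 and 2 in snRNP assembly.

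Across the 52 genes the size of the change had little relation to level or length. The correlation of the change with mean log2 TPM was r = -0.11 (rho = -0.04) and with transcript length r = 0.23 (rho = 0.19), over genes measured in the same libraries and given as a description.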

How the data were processed

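Levels of polyadenylated RNA were measured in 10 libraries of mouse neocortex, 2 at each of 5 stages, grouped by the stage in the labels. The authors deposited 1 table of TPM per gene, already normalized. The submitters' processing notes name STAR, Subread and the build GRCm38.p5, with no versions or roles, and the annotation, the gene lengths, the treatment of reads shared between genes, the strand setting and the choice of the 6147 genes listed were not given in the sources used here. Listed genes hold between 68.9% and 71.7% of each library's TPM. Every value column was matched to a sample by its name (0 left out). TPM carry no read counts, so the depth is unknown and no counting interval is given; with 2 libraries a stage, their number limits the precision.

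From the TPM, log2(TPM + 1) was tested with limma 3.58.1 (R 4.3.3) with a variance trend, on the 6048 genes averaging 1 TPM or more (99 were left out), over all 10 libraries (5 residual degrees of freedom). Contrasts between successive stages, between E12.5 and P0, and an F test over stages were adjusted by Benjamini-Hochberg over all genes tested, with a threshold of 0.05. Tests were 2-sided. Pairs of related genes were compared by a permutation F test over all 945 ways to assign the libraries to pairs, exact, with a smallest p of 0.00106; 2 libraries against 2 alone cannot go below 0.333. The test was tried on simulated data first. Alternatives were a pseudocount of 0.1 or 10, no filter or a minimum of 5 TPM, median-of-ratios or quantile scaling, no trend, array weights, a replicate block, only the stages compared, and leaving out libraries.

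The genes and lists were chosen with earlier results of these data known. Genes are described in the order of their role; the rule for named genes took the highest and lowest change of each group from E12.5 to P0, up to 3 called rises and 3 called falls at each step, the pairs, the highest and lowest mean, the 3 lowest F values, any other gene where its group is described, and, of the other splicing lists, the highest and lowest change. Snrnp70, Snrnp200, Tnpo3 and Clk3 were added after their values were seen. Related pairs with a gene outside the table are not analysed here. The values of 1 gene, and the pair that holds it, are not reported here, although counts, sums and adjustments include it. Positions are from GENCODE M21 (GRCm38), chosen here. Python 3.11.15, pandas 2.3.3, numpy 2.4.6, scipy 1.17.1 and matplotlib 3.10.9 were used.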

Additional observations from a re-analysis of the deposited data

How the results depend on the processing

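Of the 47 genes called between E12.5 and P0, 39 were called in the same direction under all 21 alternatives. The number called was 44 to 49 for E12.5 to P0 and 47 to 51 for any stage. The counts for single steps moved more. Shares of all genes are not set beside the counts in this section, so the counts do not show whether a shift is particular to the 52. From E12.5 to E14, for instance, more genes were called among all genes tested as well when an E17 library was left out. For E12.5 to E14 (3 called) the count was 1 with median-of-ratios scaling, 28 with array weights, 30 with only the 2 stages compared, 20 without both E17 libraries and 0 to 20 with 1 library left out; where it was 0, limma's unadjusted p was under 0.05 for 5 to 14 of the genes. For E14 to E15.5 (32 called) it was 19 to 41 with 1 library left out. For E15.5 to E17 (20 called) it was 6 with array weights, 0 with only the 2 stages compared (23 genes at an unadjusted p under 0.05 by limma), and 3 to 28 with 1 library left out. For E17 to P0 (16 called) it was 8 with array weights, 8 with only the 2 stages compared and 12 to 25 with 1 library left out. Fewer samples leave fewer residual degrees of freedom; the cause of the other differences was not tested.

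Signs turned for Lsm6 with median-of-ratios scaling (0.062), for Prpf39 with it (0.237), with quantile normalization (0.258) and without P0 replicate 1 (0.013; -0.07 without replicate 2), for Prpf8 with the first (0.025) and second (0.021) of these scalings, and for Srsf5 with the first (0.247) and without E12.5 replicate 1 (0.035) or P0 replicate 1 (0.077; -0.134 without replicate 2). Srsf9 minus Srsf1 was -0.037 and turned with a pseudocount of 10 (0.056), without E12.5 replicate 2 (0.016) and without P0 replicate 2 (0.168), with -0.243 without P0 replicate 1. With 1 library left out, Prpf38b minus Prpf38a was -0.722 to -0.558 (adjusted p 0.00988 to 0.326, exact permutation test) and U2af1 minus U2af2 0.375 to 0.433 (0.0123 to 0.202).

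Deviations of same-numbered libraries correlated at -0.375 to 0.107, over 0.1 for 1 of 10 pairs of stages. With 2 libraries a stage, a negative value means that libraries of opposite number deviated together. The lowest values were those of E12.5 with E17 (-0.375) and with E14 (-0.281). A block by replicate number cannot take up such crossed deviations. A replicate block gave 2, 31, 19 and 14 genes called at the 4 steps, 46 between E12.5 and P0 and 49 for any stage.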

Other observations

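The makeup of the SR transcripts shifted while their sum fell. The shares are of the 9 SR genes listed by the authors, which do not include Srsf3, and not of the whole family. Srsf1 made up 31.4% ± 0.645 (SD, n = 2) of this summed TPM at E12.5, 25.96% ± 2.36 at E17 and 24.5% ± 1.33 at P0. Srsf5 made up 7.31% ± 0.201 at E12.5 and 15.52% ± 1.04 at P0, by way of 9.04% ± 0.29 at E15.5 and 11.9% ± 0.762 at E17. Srsf2 held 19.4% ± 0.644 at E12.5 and 19.3% ± 1.76 at P0, with 16.9% ± 1.53 at E17. Srsf7 went from 13.35% ± 0.0919 to 11.5% ± 0.26, Srsf6 from 7.56% ± 0.126 to 8.90% ± 0.0866, and Srsf9 from 4.52% ± 0.144 to 3.43% ± 0.509. These shares add to a fixed total, so a larger share of one gene lowers the others, and they were not tested.

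Within each protein ring, the highest and lowest levels among the genes measured lay further apart at P0 than at E12.5. This was not tested. In the Sm ring, whose proteins are built into the snRNP in equal numbers, Snrpd3 was the highest of the 5 measured in all 10 libraries. The ratio of the highest to the lowest was 1.43 and 1.498 at E12.5, 1.75 and 1.90 at E15.5, and 2.62 and 2.67 at P0, with Snrpe lowest in 9 libraries and Snrpf in P0 replicate 1. In the U6 ring the same ratio was 5.09 and 4.63 at E12.5, 6.41 and 6.69 at E15.5, and 7.03 and 8.52 at P0, with Lsm6 the highest in all 10 libraries. The lowest of the 6 was Lsm7 at E12.5 and E14, and Lsm2 at P0.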
